A study of Mus musculus with 13 samples.

Results

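Hepatic stellate cells were followed through 10 of their genes, out of 53392 genes in the count table, in whole liver of alcohol-fed mice. These genes were Reln, Sparcl1, Dcn, Hgf, Pdgfrb, Rgs5, Colec10, Colec11, Des and Acta2. Reln and Sparcl1 were chosen by their lower counts in induced livers, with no threshold stated, and the other 8 were named as stellate cell genes, with no measured value given for their choice. All 10 passed the filter on low counts, which left 14317 genes tested.

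RNaseq was performed on whole liver of 13 female mice, 8 to 14 weeks old, which took 28% of their calories from ethanol for 4 weeks. TRE-ASAH1, a ceramidase transgene that responds to doxycycline (Dox), was present in ASAH+ mice and absent from ASAH- mice. Albumin-Cre and Rosa26-loxP-stop-loxP-rtTA were homozygous in every mouse of the 3 groups. The groups were 4 ASAH- mice on an ethanol diet with Dox (Etoh-Dox), 5 ASAH+ mice on Etoh-Dox, called induced here, and 4 ASAH+ mice on ethanol without Dox (Etoh), called uninduced. Albumin-Cre restricts the transgene to hepatocytes, so stellate cells are not themselves induced in this model. The ASAH- mice received Dox and the uninduced mice did not, so the comparison of these 2 groups differs in genotype and in Dox at once. Library totals over all genes ran from 17819486 to 35358711 counts, and the median library held 24454043. Asah1, the ceramidase gene, had a level of 12760 ± 2800 CPM (SD, n = 5) in induced mice, where CPM are counts scaled to a common library size. In the ASAH- group it averaged 49.4 ± 6.78 CPM (SD, n = 4). The uninduced group averaged 46.5 ± 1.70 CPM (SD, n = 4), and every induced mouse was above every other mouse, as the labels state.

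Stellate cells are the pericytes of the liver sinusoid and lie in the space of Disse between hepatocytes and endothelium. In the quiescent state they store vitamin A as retinyl ester in lipid droplets, make the growth factor HGF and regulate sinusoidal tone. In injured liver, alcohol injury included, they can become contractile myofibroblasts that express alpha smooth muscle actin and deposit matrix.

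Beside the 10 genes, 22 other markers of quiescent stellate cells were read, and all 22 were detected and tested. Their detection in whole liver does not show which cells the 10 genes come from. Lrat, which esterifies retinol, had a level of 24.9 CPM over the 13 mice. Lhx2, a transcription factor of quiescent stellate cells, was at 1.92 CPM, and Cygb, the stellate cell globin, was at 6.98 CPM. None of the 22 markers was at 0 in any mouse. Hepatocyte RNA made up far more of these samples, with Alb, the albumin gene, at 90340 CPM. Because the liver was measured in bulk, fewer stellate cells and less RNA per stellate cell cannot be told apart in any level given here.

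Per length of the longest protein-coding transcript, the order of the 10 levels over the 13 mice ran from Dcn at 80.0 ± 10.1 CPM per kb (SD, n = 13) to Acta2 at 0.941 ± 0.307 CPM per kb (SD, n = 13). Colec11 came second at 23.0 CPM per kb, then Rgs5 at 9.61 and Colec10 at 7.42. Reln at 3.9, Sparcl1 at 2.96 and Hgf at 2.88 CPM per kb followed, and Pdgfrb at 1.51 and Des at 1.4 CPM per kb stood near the end. The ranges of Dcn and Colec11 overlapped with no other member, and those of Colec10 and Reln did not overlap with each other. Rgs5 and Colec10 overlapped, as did each pair of neighbours from Reln down to Acta2.

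Promoter sequences were available for 6 of the 10 genes, and 3 are shown because these genes stand for the roles described: a secreted glycoprotein, a signalling regulator and an intermediate filament. Each is the 250 bases before the start of the gene in RefSeq GRCm38.p6, read 5′ to 3′ on the strand of the gene, with any match to the motifs searched in capitals. Reln lies at chr5:22344706-22344955 on the minus strand, Rgs5 at chr1:169655251-169655500 on the plus strand and Des at chr1:75360042-75360291 on the plus strand, and none of the 3 stretches overlaps an annotated exon.
Reln: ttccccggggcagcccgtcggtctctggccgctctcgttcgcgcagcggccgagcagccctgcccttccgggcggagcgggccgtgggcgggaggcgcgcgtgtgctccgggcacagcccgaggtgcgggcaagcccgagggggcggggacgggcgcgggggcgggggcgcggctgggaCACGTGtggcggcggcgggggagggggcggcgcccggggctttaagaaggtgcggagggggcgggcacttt
Rgs5: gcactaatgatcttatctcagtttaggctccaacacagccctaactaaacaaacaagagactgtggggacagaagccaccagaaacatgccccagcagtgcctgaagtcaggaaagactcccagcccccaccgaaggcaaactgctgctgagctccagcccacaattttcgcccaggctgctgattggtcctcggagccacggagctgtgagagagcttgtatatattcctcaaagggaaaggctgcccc
Des: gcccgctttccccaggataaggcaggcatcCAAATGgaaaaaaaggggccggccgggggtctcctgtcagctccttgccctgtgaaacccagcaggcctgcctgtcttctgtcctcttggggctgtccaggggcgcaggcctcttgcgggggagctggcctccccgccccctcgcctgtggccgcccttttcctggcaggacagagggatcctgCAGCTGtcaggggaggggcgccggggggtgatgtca

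The stretch of Reln was 80% G and C with 37 CpG, against medians of 52.4% and 6 CpG over 32841 promoters of the same length. Rgs5 was at 53.6% and Des at 67.2% G and C, so the 3 stretches differed in base composition. The motifs searched on both strands were the E-box (CANNTG, which reads the same on both strands), the MCAT element (CATTCC), the AP-1 site (TGANTCA), the TATA box (TATAAA) and the CArG box. They occur in 66.2%, 12.6%, 6.75%, 12.4% and 1.47% of all promoters, in that order. Reln held 1 E-box 71 to 66 bases before the start, Des held 2 E-boxes, and Rgs5 held none of the motifs. Of the genes not shown, Hgf had 2 E-boxes before its outermost start, Colec11 had 1 E-box, and Acta2 had 1 MCAT element and 3 E-boxes. A match is a description of letters and not a binding site.

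Reln (ENSMUSG00000042453, chr5:21884454-22344702 on the minus strand of GRCm38) encodes reelin, a large secreted glycoprotein made by stellate cells. Its level was 52.5, 51.8, 55.1 and 53.2 CPM in the 4 ASAH- mice, 35.01, 42.1, 43.1, 46.3 and 39.0 CPM in the 5 induced mice, and 42.5, 41.7, 41.3 and 50.4 CPM in the 4 uninduced mice. Every ASAH- mouse was above every mouse of the other groups, while induced and uninduced mice overlapped. Between induced and ASAH- mice the log2 fold change was -0.37 ± 0.087 (SE), and it was -0.35 without ASAH- replicate 3, a mouse that stood apart as described further on. Between induced and uninduced mice it was -0.10 ± 0.088 (SE). Since Reln was picked for lower counts in induced livers, these 2 differences are described without a test.

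Sparcl1 (ENSMUSG00000029309, chr5:104079111-104113733 on the minus strand) encodes a secreted matrix glycoprotein of the SPARC family. It was at 8.67, 9.21, 11.2 and 9.08 CPM in ASAH- mice, 5.83, 6.95, 6.87, 7.22 and 6.42 CPM in induced mice, and 9.77, 8.10, 7.89 and 8.73 CPM in uninduced mice. All 5 induced mice were below all mice of the other groups, and ASAH- and uninduced mice overlapped. The difference on the log2 scale was -0.52 ± 0.11 (SE) against ASAH- mice, or -0.43 without ASAH- replicate 3, and -0.37 ± 0.11 (SE) against uninduced mice, again with no test because these values chose the gene. Groups that did not overlap with the induced mice lower were found for 2 of the 10 genes against ASAH- mice, both of them picked, and for 0.447% of all genes. Against uninduced mice the count was 1 of 10, Sparcl1, and 1.49% of all genes, and nothing is read from either count.

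Dcn encodes decorin, a small proteoglycan that binds collagen fibrils. Its level was 138, 140, 171 and 167 CPM in ASAH- mice, 132, 151, 133, 126 and 113 CPM in induced mice, and 147, 129, 121 and 161 CPM in uninduced mice. The 3 groups overlapped, with ASAH- replicates 3 and 4 highest and induced replicate 5 lowest. Against ASAH- mice the log2 fold change of Dcn was -0.23 ± 0.11 (SE), and -0.18 without ASAH- replicate 3, with an adjusted p of 1 by edgeR's quasi-likelihood F test after Benjamini-Hochberg correction and an exact permutation p of 0.0794.

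**Figure D1:**
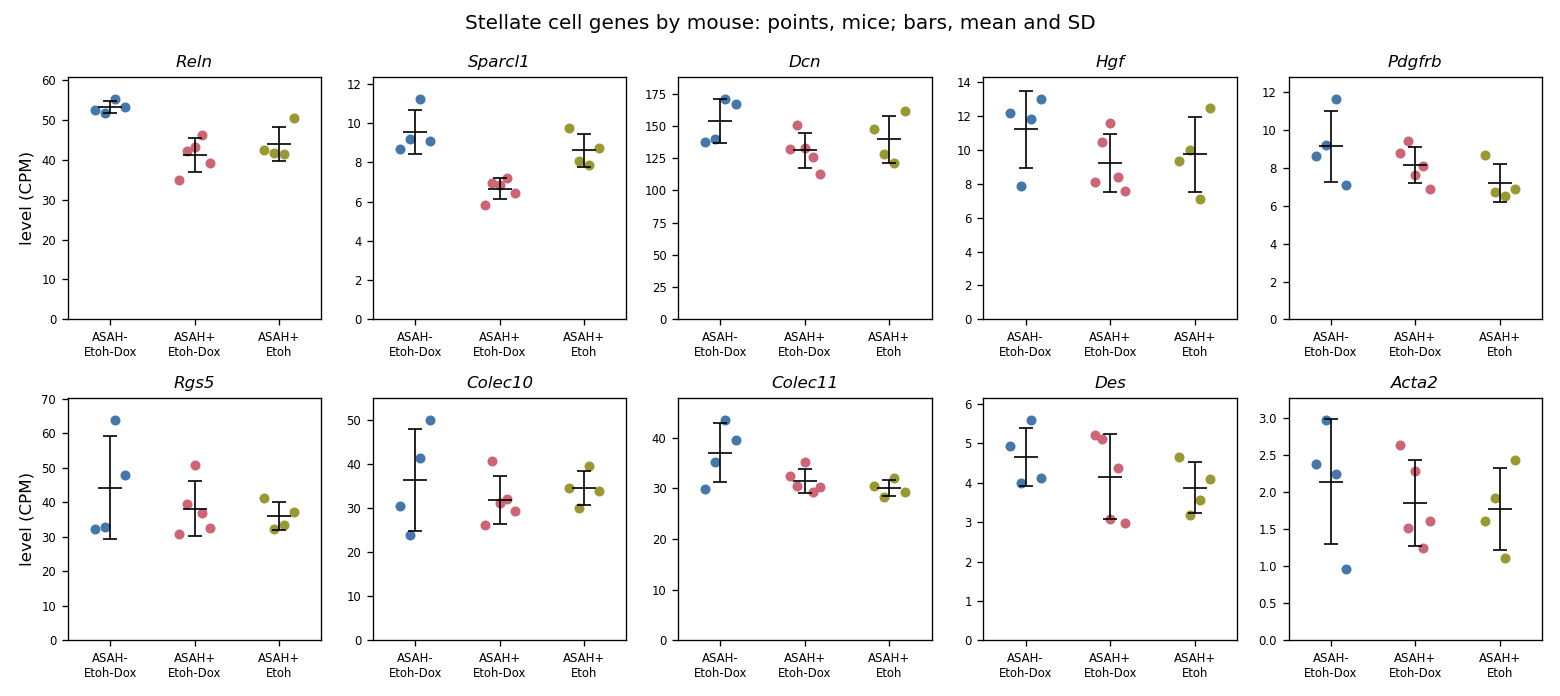
Level in CPM of the 10 stellate cell genes in each mouse, by group, with points for mice and bars for the mean and SD (n = 4, 5 and 4). Only Reln against ASAH- mice and Sparcl1 against both other groups have the 5 induced mice below all others, and both genes were picked for lower counts in induced livers.

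Among the other genes of these families, SPARC family genes were lower in induced than in ASAH- mice in 5 of 5 tested, with 3 at an unadjusted p under 0.05, beside 1.57% of all genes, and a median log2 fold change of -0.47. Without ASAH- replicate 3 this was 4 of 5 and 1, with a median of -0.27, and the median was -0.30 with 1 gene without ASAH- replicate 1. Leaving out induced replicate 1 or 5 also left 1 gene at that p. Sparc, the founding matrix glycoprotein of the family, was at 58.0 CPM in ASAH-, 41.9 in induced and 43.5 CPM in uninduced mice. Its log2 fold change between induced and ASAH- mice was -0.47 ± 0.16 (SE), with an adjusted p of 1 by edgeR's quasi-likelihood F test after Benjamini-Hochberg correction. The other genes at that p were Smoc2, at 5.63, 4.04 and 4.15 CPM, and Fstl1, at 6.11, 4.68 and 4.76 CPM in ASAH-, induced and uninduced mice, both named here after their values were seen. Against uninduced mice the family was lower in induced mice in 4 of 5, with a median of -0.039 and 0 at that p. Over the alternatives 1 to 5 were lower, and the median was 0.049 without uninduced replicate 4. DESeq2 on the groups compared had 1 lower at that p. Smoc1, the most abundant SPARC family gene with 73.5% of the family's sum, had a log2 fold change of -0.04 against ASAH- mice and -0.27 against uninduced mice. Of the small leucine-rich proteoglycans other than Dcn, 5 of 7 tested were lower in induced than in ASAH- mice, with a median log2 fold change of -0.0047 and 1, Prelp, at an unadjusted p under 0.05. The median was above 0 without ASAH- replicate 3 or uninduced replicate 3 or 4, with no count filter, with Asah1 left out of the library totals, by DESeq2 on all mice and by edgeR on the groups compared, and the count at that p was 0 without ASAH- replicate 3 or induced replicate 5 and 2 without induced replicate 2. Bgn, biglycan, was at 115, 102 and 101 CPM in ASAH-, induced and uninduced mice. Lum, lumican, was at 8.92, 8.91 and 8.33 CPM in the same order, and Prelp at 67.4, 54.0 and 59.8 CPM.

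In the reelin pathway, 5 of 7 genes tested were lower in induced than in ASAH- mice, by a median log2 of -0.01, with 0 at an unadjusted p under 0.05. The median was above 0 without ASAH- replicate 1 or induced replicate 3. Crk, an adaptor protein of the pathway, was at 86.3, 85.4 and 96.4 CPM in ASAH-, induced and uninduced mice. Pafah1b1, which encodes LIS1, was at 82.2, 81.3 and 90.3 CPM. Vldlr, a reelin receptor, was at 21.0, 22.2 and 25.7 CPM in that order. Lrp8, the other receptor, and Dab1, the adaptor that is phosphorylated when reelin binds its receptors, had 0 to 5 and 1 to 11 counts per mouse and were not tested.

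Hgf encodes hepatocyte growth factor, which stellate cells make and hepatocytes receive through Met. Its level was 12.2, 7.86, 11.8 and 12.98 CPM in ASAH- mice, 8.07, 10.4, 11.6, 8.42 and 7.59 CPM in induced mice, and 9.36, 10.01, 7.10 and 12.5 CPM in uninduced mice. All 3 groups overlapped, and ASAH- replicate 2 was among the lowest mice while ASAH- replicate 4 was the highest. Hgf had a log2 fold change of -0.28 ± 0.18 (SE) between induced and ASAH- mice, with an exact permutation p of 0.222. Of 31-base words in Hgf, 6.31% also occur in the pseudogene Gm43489, which had 2 to 10 counts per mouse where Hgf had 153 to 363, so the split of reads between them is uncertain.

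In the HGF pathway, 9 of 13 genes tested were lower in induced than in ASAH- mice, with a median log2 fold change of -0.045 and 1 lower at an unadjusted p under 0.05, beside 1.57% of all genes. Without ASAH- replicate 1, 2 or 3 it was 6 of 13, with medians above 0, and without replicate 3 no gene was at that p. Without ASAH- replicate 1 or 4 or induced replicate 2, 1 gene was also higher at that p, and the median was -0.11 without ASAH- replicate 4. The gene lower at that p with all mice in the fit was Plau, the protease urokinase, named here after its values were seen. It was at 1.75 CPM in ASAH- and 1.06 CPM in induced mice, with a log2 fold change of -0.71 ± 0.24 (SE) between induced and ASAH- mice. Met, the receptor, was at 105, 114 and 117 CPM in ASAH-, induced and uninduced mice, and Hgfac, which activates HGF, at 257, 248 and 223 CPM. Plg, plasminogen, was the most abundant gene of the list with 76.2% of its sum. Its level was 2757 CPM in ASAH-, 2600 in induced and 2894 in uninduced mice. Hpn, the protease hepsin, was at 297, 296 and 270 CPM. Sos1, a Ras exchange factor downstream of Met, was at 37.2, 42.7 and 49.5 CPM, with an adjusted p of 0.389 between ASAH- and uninduced mice by edgeR's quasi-likelihood F test after Benjamini-Hochberg correction. DESeq2 fitted on all mice called Sos1 in that comparison, and DESeq2 fitted on the groups compared did not.

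Pdgfrb encodes the beta receptor of platelet-derived growth factor, a mitogen for stellate cells. It was at 8.63, 9.21, 11.6 and 7.12 CPM in ASAH- mice, 8.77, 9.40, 7.63, 8.10 and 6.90 CPM in induced mice, and 8.66, 6.71, 6.54 and 6.88 CPM in uninduced mice. The groups overlapped, and 3 of the 4 uninduced mice lay below every induced mouse. Of the 10 genes, Pdgfrb had the largest log2 difference toward higher levels in induced than in uninduced mice, 0.18 ± 0.15 (SE), with an exact permutation p of 0.167. The difference between induced and ASAH- mice was -0.16 ± 0.15 (SE) on the log2 scale, with an exact permutation p of 0.381, and this was -0.025 without ASAH- replicate 3 and -0.27 without ASAH- replicate 4.

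In the PDGF family, 4 of 5 genes tested were lower in induced than in ASAH- mice, with a median log2 fold change of -0.34 and 2, Pdgfra and Pdgfd, at an unadjusted p under 0.05, beside 1.57% of all genes. By limma-voom the median was -0.14 with 3 of 5 lower, and without ASAH- replicate 3 it was -0.21 with 3 of 5 lower and 1 at that p. Leaving out induced replicate 1 or 5 also left 1 gene at that p. Pdgfra, the alpha receptor, was at 8.80, 6.83 and 8.09 CPM in ASAH-, induced and uninduced mice, and Pdgfd, a ligand of the beta receptor, at 1.63, 1.09 and 1.53 CPM. For Pdgfd the log2 fold change between induced and ASAH- mice was -0.57 ± 0.19 (SE), with an adjusted p of 1 by edgeR's quasi-likelihood F test after Benjamini-Hochberg correction. The ligands Pdgfa and Pdgfb were at 1.79 and 1.23 CPM in ASAH- mice and 2.02 and 0.961 CPM in induced mice, and Pdgfc was at 4.41 and 4.01 CPM.

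Rgs5 encodes a regulator of G protein signalling found in pericytes. Its level was 32.2, 32.9, 63.7 and 47.9 CPM in ASAH- mice, 30.9, 39.6, 50.9, 36.8 and 32.5 CPM in induced mice, and 41.2, 32.3, 33.5 and 37.3 CPM in uninduced mice. ASAH- replicate 3 was the highest of the 13 mice, and 2 of the 4 ASAH- mice were near the bottom. Between induced and ASAH- mice Rgs5 had a log2 fold change of -0.21 ± 0.20 (SE), which was 0.02 without ASAH- replicate 3. Of 8 other genes of the RGS family tested, 4 were lower in induced than in ASAH- mice, with 0 at an unadjusted p under 0.05 and a median log2 fold change of -0.03. At that p 1 was higher without ASAH- replicate 2 or 4, by DESeq2 on all mice, limma-voom or edgeR on the groups compared, and 2 without induced replicate 4 or by DESeq2 on the groups compared, and the median was above 0 without ASAH- replicate 3 or 4 or induced replicate 3, 4 or 5. Rgs16, with 87.5% of the sum of the family, was at 157, 232 and 179 CPM in ASAH-, induced and uninduced mice. Rgs2 was at 5.73, 4.88 and 4.13 CPM and Rgs3 at 9.37, 14 and 12.8 CPM. Compared with uninduced mice, 0 of the 8 other RGS family genes were lower in induced mice, beside 47% of all genes. Their median log2 fold change was then 0.27, with 0 at an unadjusted p under 0.05. Over the alternatives 0 to 2 were lower, and 0 to 1 was higher at that p.

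Colec10 encodes a collectin, a soluble lectin that binds sugars on microbes. It was at 30.5, 23.8, 41.3 and 49.8 CPM in ASAH- mice, 26.0, 40.6, 31.2, 32.1 and 29.3 CPM in induced mice, and 34.6, 30.0, 39.5 and 33.8 CPM in uninduced mice. The ASAH- mice covered the whole range of the other groups. Colec10 had a log2 fold change of -0.19 ± 0.19 (SE) between induced and ASAH- mice, with an exact permutation p of 0.556. It was -0.35 without ASAH- replicate 2 and -0.0021 without ASAH- replicate 4.

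Colec11 encodes the collectin that associates with Colec10 and with the protease Masp1. Its level was 29.9, 35.2, 43.5 and 39.6 CPM in ASAH- mice, 32.4, 30.4, 35.2, 29.2 and 30.2 CPM in induced mice, and 30.6, 28.4, 32.0 and 29.3 CPM in uninduced mice. ASAH- replicates 3 and 4 were above every other mouse, and the remaining ASAH- mice overlapped with the rest. The log2 fold change between induced and ASAH- mice was -0.23 ± 0.10 (SE), with an unadjusted p of 0.0343 and an adjusted p of 1 by edgeR's quasi-likelihood F test after Benjamini-Hochberg correction. It was the only one of the 8 genes not picked for their counts with an unadjusted p under 0.05 in that comparison, and the exact permutation p was 0.111. The log2 fold change was -0.15 without ASAH- replicate 3. Of the 8 genes, 0 were at that p without ASAH- replicate 3 or 4 or induced replicate 4 or 5 and with edgeR on the groups compared, 2 without ASAH- replicate 1 or uninduced replicate 4, and 4 without ASAH- replicate 2.

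In the lectin complement pathway, 6 of 10 genes tested were lower in induced than in ASAH- mice, with a median log2 fold change of -0.011 and 0 lower and 1 higher at an unadjusted p under 0.05, beside 1.57% and 1.29% of all genes. The median was above 0 without induced replicate 2, 3 or 5 and with no count filter, and with a mouse left out 4 to 7 of 10 were lower. The gene at that p was Mbl2, a mannose-binding lectin named here after its values were seen. It was at 378, 451 and 429 CPM in ASAH-, induced and uninduced mice, with a log2 fold change of 0.26 ± 0.12 (SE) between induced and ASAH- mice. No gene was higher at that p without ASAH- replicate 3 or 4, induced replicate 1, 3 or 4 or uninduced replicate 2 or 3, by limma-voom, or with DESeq2 or edgeR on the groups compared, and DESeq2 on all mice had 1 lower and 1 higher. The proteases Masp1 and Masp2 were at 165 and 215 CPM in ASAH- mice and 159 and 195 CPM in induced mice. C3, with 74.6% of the sum of the list, was at 11210, 10820 and 12820 CPM in ASAH-, induced and uninduced mice, and Serping1, the inhibitor of the first complement component, at 826, 823 and 879 CPM. Fcna, a ficolin, was at 66.7, 63.3 and 49.7 CPM, and Fcnb was at 0 in all 13 mice.

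Des encodes desmin, the intermediate filament of stellate and muscle cells. Its level was 4.93, 4.01, 5.59 and 4.11 CPM in ASAH- mice, 5.23, 5.12, 3.07, 4.37 and 2.99 CPM in induced mice, and 4.65, 3.17, 3.57 and 4.11 CPM in uninduced mice. The groups overlapped, and the induced mice covered the range of the uninduced mice. Des had a log2 fold change of -0.16 ± 0.20 (SE) between induced and ASAH- mice, with an exact permutation p of 0.381, and ran from -0.26 without induced replicate 1 to -0.056 without induced replicate 5.

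Acta2 encodes alpha smooth muscle actin, the actin of myofibroblasts and vascular muscle. It was at 2.37, 2.97, 2.24 and 0.965 CPM in ASAH- mice, 2.63, 1.51, 2.28, 1.24 and 1.60 CPM in induced mice, and 1.61, 1.91, 1.11 and 2.43 CPM in uninduced mice, from 24 to 95 counts per mouse. No group stood apart, and the mice spread widely within each. Induced and ASAH- mice differed by -0.19 ± 0.32 (SE) on the log2 scale, and an interval of 95% runs from -0.87 to 0.49, in both directions. Of the 31-base words of Acta2, 1.39% also occur in other genes, Actg1 and the actin pseudogenes Gm6375 and Actg-ps1, so a small share of its reads is uncertain. Tagln, a smooth muscle protein, was at 4.55, 3.38 and 3.88 CPM in ASAH-, induced and uninduced mice, and Vim, vimentin, at 17.7, 13.4 and 15.0 CPM. Of the 11 other intermediate filament and contractile genes tested, 6 were lower in induced than in ASAH- mice, with 0 at an unadjusted p under 0.05 (1 lower without ASAH- replicate 4 or induced replicate 2) and a median log2 fold change of -0.03. The median was above 0 without ASAH- replicate 1 or 3 or induced replicate 3, 4 or 5 and with at least 10 counts in every mouse. Actb, the most abundant of them with 52.8% of the sum, was at 321, 336 and 246 CPM, Actg1 at 131, 126 and 104 CPM, and Srf, the factor that drives actin genes, at 6.70, 7.36 and 5.39 CPM.

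Between induced and ASAH- mice, which answers what the transgene changes when both groups take Dox, no gene of the 8 not picked was called by edgeR at an adjusted p under 0.1, beside 0.014% of all genes. At an unadjusted p under 0.05 with induced mice lower, 1 of 8 passed, beside 1.57% of all genes, and DESeq2 and limma-voom also called 0 of 8. All 8 had a log2 fold change below 0, as did the 2 picked, beside 50.7% of all genes. The median was -0.22 over the 10 and -0.20 over the 8, beside -0.0023 over all genes. The median standard error was 0.164 over the 10 and 0.16 over all genes.

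Between induced and uninduced mice, both ASAH+, edgeR called 0 of the 8 genes, beside 0.014% of all genes. These groups differ in Dox and in the transgene that Dox switches on, which cannot be told apart here. At an unadjusted p under 0.05 with induced mice lower, 0 of 8 passed, beside 3.24% of all genes, and DESeq2 and limma-voom called 0 of 8. Of the 8, 3 were lower in induced mice, beside 47% of all genes. The median log2 fold change was 0.074 over the 8 and -0.0039 over the 10, beside 0.013 over all genes.

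Between ASAH- mice on Etoh-Dox and uninduced mice on Etoh, the ASAH- mice also entered the choice of Reln and Sparcl1, so these 2 genes are again described with no test. edgeR called 0 of the other 8, beside 0.014% of all genes, and DESeq2 and limma-voom called 0 of 8. At an unadjusted p under 0.05 with ASAH- mice higher, 2 of 8 passed, Colec11 and Pdgfrb, beside 5.08% of all genes. For Colec11 the log2 fold change was 0.30 ± 0.11 (SE), or 0.21 without ASAH- replicate 3, and the exact permutation p was 0.0857. For Pdgfrb it was 0.34 ± 0.16 (SE), or 0.21 without ASAH- replicate 3, with an exact permutation p of 0.0857, and without that mouse 0 of 8 passed. The groups did not overlap with ASAH- mice higher for 0 of the 8, beside 3.09% of all genes. All 8 were higher in ASAH- mice by log2 fold change, as were the 2 picked, beside 53.2% of all genes, with a median of 0.27 over the 8 and 0.016 over all genes. Reln had a log2 fold change of 0.27 ± 0.093 (SE). The 3 comparisons share mice, so they are not independent of each other.

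**Figure D2:**
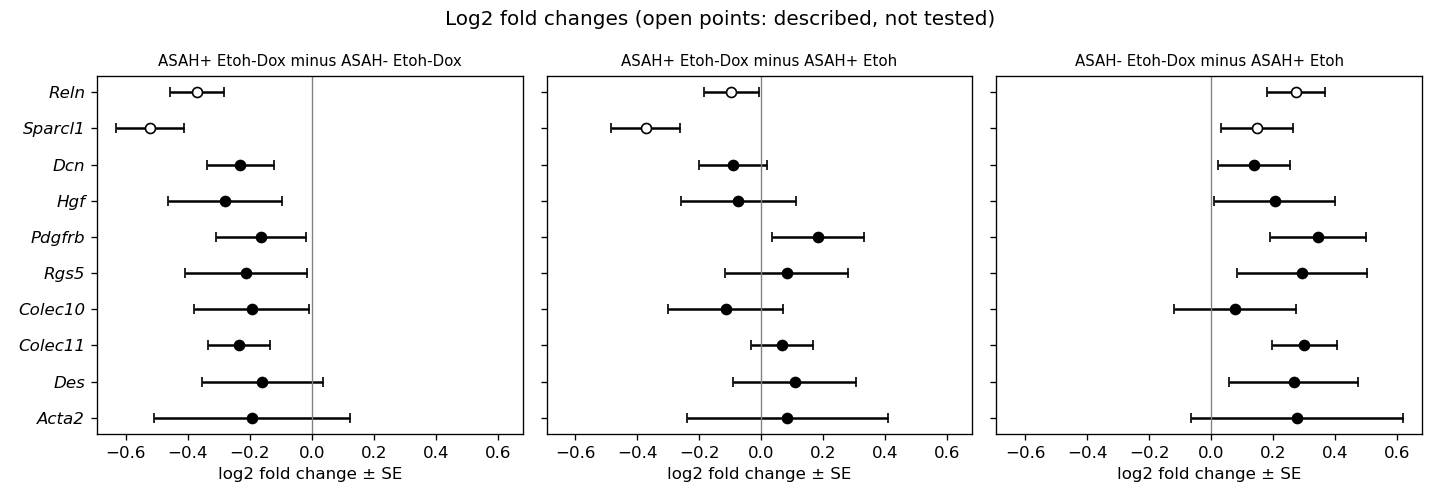
Log2 fold change with SE of the 10 stellate cell genes in each of the 3 comparisons, with open points for the picked genes Reln and Sparcl1, which are described and not tested. The points lie below 0 for all 10 genes between induced and ASAH- mice and above 0 for all 10 between ASAH- and uninduced mice.

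ASAH- replicate 3 stood apart from the other mice in the mean over the 10 genes. For Hgf, Colec10 and Acta2 it was not the highest ASAH- mouse. Its mean standardised deviation from its group was 1.15, and the lowest was -0.781 in induced replicate 5. In the same mouse the summed level of 13 Kupffer cell and macrophage markers was 1105 CPM, against 411 to 783 CPM in the other 12 mice. Without this mouse, 9 of the 10 genes were lower in induced than in ASAH- mice, with a median log2 fold change of -0.16. The log2 fold change of Colec11 was then -0.15 and that of Rgs5 was 0.02. Between ASAH- and uninduced mice all 10 were higher in ASAH- mice also without this mouse, with a median of 0.17. The part of the macrophage markers in these differences was not tested.

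The quiescent stellate cell markers were lower in induced than in ASAH- mice in 18 of 22, with 2 at an unadjusted p under 0.05 and a median log2 fold change of -0.09, beside 1.57% and -0.0023 for all genes. Without induced replicate 5 this was 12 of 21 with 0, without ASAH- replicate 3 it was 14 of 21 with 0, and over the other mice left out in turn 0 to 3 were at that p. The markers were higher in ASAH- than in uninduced mice in 17 of 22, with 6 at an unadjusted p under 0.05 and a median of 0.26, beside 5.08% and 0.016 for all genes. Against uninduced mice the induced mice were higher in 15 of 22, with 3 at that p (1 without uninduced replicate 1, 5 without induced replicate 5), beside 4.05%, and a median of 0.11. As the mean log2 difference of the 22 markers from their centre over the groups, with every gene weighted alike, ASAH- mice ran from 0.044 to 0.27 and uninduced mice from -0.24 to -0.0057, so these groups did not overlap, and induced mice, from -0.15 to 0.12, overlapped with both. Their summed level was 817, 874, 833 and 906 CPM in ASAH- mice, 834, 851, 818, 777 and 727 CPM in induced mice, and 843, 782, 816 and 820 CPM in uninduced mice. The sums overlapped, with 2 induced mice below all others. Cxcl12, a chemokine, was the most abundant marker with 35.2% of the sum, and Steap4 and Ecm1 came next at 166 and 123 CPM. The sum therefore does not weight the markers alike, and which cells these transcripts came from was not measured. Per length Ecm1 and Steap4 were highest at 64.6 and 52.5 CPM per kb. Lrat was at 25.2, 24.8 and 24.8 CPM in ASAH-, induced and uninduced mice. In the same order Lhx2 was at 2.06, 1.95 and 1.74 CPM and Cygb at 7.55, 7.33 and 5.98 CPM. Angptl6 was at 8.08, 8.17 and 5.42 CPM, with a log2 fold change of 0.59 ± 0.14 (SE) between induced and uninduced mice and an adjusted p of 0.407 by edgeR's quasi-likelihood F test after Benjamini-Hochberg correction. DESeq2 called Angptl6 in that comparison when fitted on the groups compared, and not on all mice. Between ASAH- and uninduced mice it called Ecm1 in both fits and Angptl6 in the fit of the groups compared.

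Myofibroblast and matrix genes were lower in induced than in ASAH- mice in 18 of 22 tested, with 1 at an unadjusted p under 0.05, beside 1.57% of all genes, and a median log2 fold change of -0.21. Without ASAH- replicate 3 they were lower in 11 of 22, with 0 at that p and a median of -0.024. Over the other mice left out in turn the count ran from 16 to 20, those at that p from 0 to 3 and the median from -0.31 to -0.13. In ASAH- mice they were higher than in uninduced mice in 18 of 22, with 3 at that p, beside 5.08% of all genes, and a median of 0.33. Without ASAH- replicate 3 these were 0 and 0.14, without ASAH- replicate 4 they were 8 and 0.41, and without uninduced replicate 4 they were 6 and 0.45. It was 2 genes without uninduced replicate 2 or 3. Fn1, fibronectin, had 91% of their sum and was at 2055, 2073 and 2513 CPM in ASAH-, induced and uninduced mice. DESeq2 on all mice called Fn1 lower in induced and in ASAH- than in uninduced mice, and on the groups compared it called the latter. Mmp14, a membrane metalloprotease, was at 39.2, 33.1 and 34.8 CPM. Timp1, Lox and Fap were too low to be tested. Hepatocytes also express Fn1, so the sum does not stand for myofibroblasts alone.

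Markers of other liver cells were also compared between the groups, and edgeR called 0 of them in each comparison. Sinusoidal endothelial markers were lower in induced than in ASAH- mice in 16 of 16, with 7 at an unadjusted p under 0.05, beside 1.57% of all genes, and a median log2 fold change of -0.32. With a mouse left out, 1 (without ASAH- replicate 3) to 11 (without ASAH- replicate 2) were at that p, and 14 of 16 were lower without ASAH- replicate 3. It was 3 without ASAH- replicate 4 or induced replicate 1, 4 without induced replicate 2 and 2 without induced replicate 3. Against uninduced mice they were lower in 15 of 16, with 11 at an unadjusted p under 0.05, beside 3.24% of all genes, and a median of -0.43. With a mouse left out this was 6 (without uninduced replicate 1) to 12 (without ASAH- replicate 3). edgeR called 0 of the 16 there, DESeq2 on all mice called 3 and DESeq2 on the groups compared called 4. Their sum was 591, 559, 755 and 696 CPM in ASAH- mice, 526, 560, 492, 569 and 545 CPM in induced mice, and 798, 619, 708 and 721 CPM in uninduced mice. Uninduced mice were all above the induced mice, and ASAH- mice overlapped with both. The most abundant gene was Plpp3 with 28.2% of the sum. Clec4g, a lectin of sinusoidal endothelium, was at 42.4, 32.0 and 45.6 CPM in ASAH-, induced and uninduced mice. Ptprb, an endothelial phosphatase, was at 51.3, 41.5 and 66.9 CPM. Its log2 fold change between induced and uninduced mice was -0.69 ± 0.14 (SE), with an adjusted p of 0.346 by edgeR's quasi-likelihood F test after Benjamini-Hochberg correction, while DESeq2 called Ptprb and Clec4g in this comparison in both fits. None of these markers was at 0, and their part in the stellate cell values was not tested.

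Kupffer cell and macrophage markers were lower in induced than in ASAH- mice in 13 of 13, with 0 at an unadjusted p under 0.05 (3 without induced replicate 2). They were higher in ASAH- than in uninduced mice in 13 of 13, with 10 at an unadjusted p under 0.05, beside 5.08% of all genes, and a median log2 fold change of 0.59. Against uninduced mice they were higher in induced mice in 12 of 13, with 0 at that p and a median of 0.40. This was 4 at that p without ASAH- replicate 3 or induced replicate 3 or 5 and with DESeq2 on the groups compared, and 2 with DESeq2 on all mice or edgeR on the groups compared. Their sum was 557, 560, 1105 and 693 CPM in ASAH- mice, 772, 783, 411, 630 and 422 CPM in induced mice, and 522, 415, 483 and 491 CPM in uninduced mice. All 4 ASAH- mice were above all uninduced mice, and the induced mice spread across both. Cd5l, a secreted macrophage protein, was the most abundant with 22.9% of the sum. Clec4f, a lectin of Kupffer cells, was at 140, 114 and 99.0 CPM in ASAH-, induced and uninduced mice. C1qa was at 57.2, 47.9 and 34.2 CPM, and DESeq2 called it between ASAH- and uninduced mice in both fits where edgeR did not. Without ASAH- replicate 3 the median between ASAH- and uninduced mice was 0.35 and 1 marker had an unadjusted p under 0.05. It was 6 markers without ASAH- replicate 4, 2 without uninduced replicate 2, 4 without uninduced replicate 3 or 4, and 8 to 11 without any of the other mice. With no count filter or by limma-voom it was 6. Between induced and ASAH- mice the median was -0.28, and -0.0061 with 7 of 13 lower without ASAH- replicate 3.

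**Figure D3:**
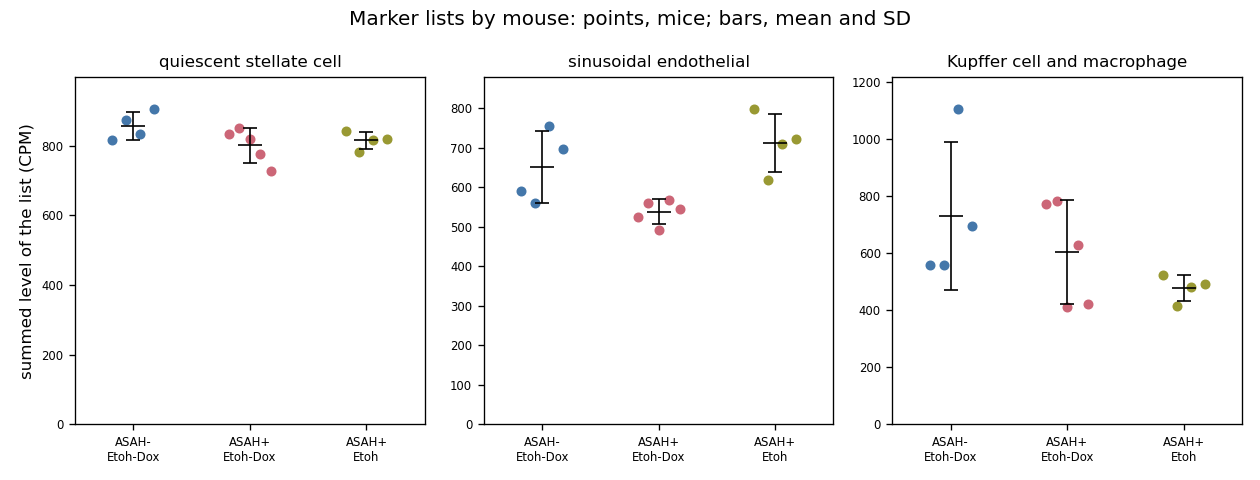
Summed level in CPM of the quiescent stellate cell, sinusoidal endothelial and Kupffer cell and macrophage markers in each mouse, with points for mice and bars for the mean and SD (n = 4, 5 and 4). The induced mice are all below the uninduced mice for the endothelial markers, and 1 ASAH- mouse is at 1105 CPM for the macrophage markers.

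Vascular smooth muscle markers were lower in induced than in ASAH- mice in 8 of 9 tested, with 0 at an unadjusted p under 0.05 and a median log2 fold change of -0.18. Without ASAH- replicate 2 it was 6 of 9 with 1 lower at that p and a median of -0.092, and 1 was higher at that p without induced replicate 5 or uninduced replicate 3 or 4 and by edgeR on the groups compared. Mylk, myosin light chain kinase, had 72% of their sum and was at 78.1, 74.9 and 83.1 CPM in ASAH-, induced and uninduced mice. Tpm2, a tropomyosin, was at 12.97, 11.8 and 23.3 CPM. Its log2 fold change between induced and uninduced mice was -0.98 ± 0.27 (SE), with an adjusted p of 0.505 by edgeR's quasi-likelihood F test after Benjamini-Hochberg correction. DESeq2 on the groups compared called Tpm2 there and between ASAH- and uninduced mice, and on all mice it called it in neither. The list summed to 116.5, 100.4, 102 and 111 CPM in ASAH- mice, 91.5, 99.6, 97.5, 102 and 114 CPM in induced mice, and 116.5, 116, 118 and 131 CPM in uninduced mice. All uninduced mice were above all induced mice, and ASAH- mice overlapped with both. Cnn1, Actg2 and Pln were too low to be tested.

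Portal fibroblast markers were lower in induced than in ASAH- mice in 6 of 9 tested, with 0 lower and 1 higher at an unadjusted p under 0.05, beside 1.57% and 1.29% of all genes. The median log2 fold change was -0.038, and 0.11 without ASAH- replicate 3. It was 0.018 by limma-voom and 0.053 with the replicate number as a block, each with 4 of 9 markers lower. With the block 0 markers were higher at that p. The portal fibroblast markers summed to 23.8, 25.8, 25.9 and 20.4 CPM in ASAH- mice, 26.2, 28.7, 23.3, 27.5 and 22.2 CPM in induced mice, and 26.1, 24.6, 24.5 and 25.4 CPM in uninduced mice. The groups overlapped. Gas1, a growth arrest protein with 35.6% of the sum, was at 7.22, 9.62 and 9.61 CPM in ASAH-, induced and uninduced mice, and Dpt, dermatopontin, at 3.57, 3.46 and 3.39 CPM. Gli1, Clec3b, Pi16 and Upk1b were too low to be tested.

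Cholangiocyte markers were lower in induced than in ASAH- mice in 6 of 6 tested, with 0 at an unadjusted p under 0.05. Over the alternatives these counts ran from 3 to 6 and from 0 to 1. The markers had a median log2 fold change of -0.34, which was 0.10 without ASAH- replicate 1. Their sum was 80.4, 46.4, 37.9 and 36.7 CPM in ASAH- mice, 35.7, 47.8, 44.4, 41.3 and 32.1 CPM in induced mice, and 45.6, 38.8, 42.7 and 52.6 CPM in uninduced mice. ASAH- replicate 1 was the highest, and the other mice overlapped. Spp1, osteopontin, had 87.6% of the sum and was at 44.0, 34.9 and 39.8 CPM in ASAH-, induced and uninduced mice, and Epcam at 1.89, 1.39 and 1.55 CPM.

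Lymphocyte markers were lower in induced than in ASAH- mice in 5 of 9 tested and higher in ASAH- than in uninduced mice in 9 of 9, with 3 of these at an unadjusted p under 0.05, beside 5.08% of all genes, and a median log2 fold change of 0.58. In induced mice they were higher than in uninduced mice in 8 of 9, with 1 at that p, beside 4.05% of all genes, and a median of 0.67. With a mouse left out, 0 (without ASAH- replicate 3) to 4 (without induced replicate 2) were at that p between ASAH- and uninduced mice, and 0 (without uninduced replicate 1, 3 or 4 or induced replicate 2) to 4 (without induced replicate 3) between induced and uninduced mice. Their median between induced and ASAH- mice was -0.13, and it was above 0 without ASAH- replicate 3 (0.024) or 4 (0.12). Summed, they were at 12.9, 16.7, 23.4 and 21.9 CPM in ASAH- mice, 18.1, 26.2, 12.4, 19.2 and 13.8 CPM in induced mice, and 12.8, 14.2, 12.4 and 11.3 CPM in uninduced mice. The uninduced mice were low and overlapped with both other groups. Ptprc, the leukocyte antigen, had 69.8% of the sum and was at 13.3, 12.2 and 9.03 CPM in ASAH-, induced and uninduced mice, and Cd79b, of the B cell receptor, at 1.12, 1.02 and 0.619 CPM.

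Hepatocyte markers were lower in induced than in ASAH- mice in 11 of 14, with 2 at an unadjusted p under 0.05, beside 1.57% of all genes, and a median log2 fold change of -0.17. With a mouse left out, 1 to 4 (without ASAH- replicate 3) were at that p, with 1 without ASAH- replicate 2 or 4, induced replicate 1, 2 or 4 or uninduced replicate 3. Against uninduced mice they were lower in 11 of 14, with 5 at that p, beside 3.24% of all genes, and a median of -0.17. Their sum was 158800, 149700, 171100 and 158000 CPM in ASAH- mice, 114100, 136400, 154400, 141300 and 148900 CPM in induced mice, and 130900, 155600, 154500 and 161100 CPM in uninduced mice. The groups overlapped, with induced replicate 1 lowest. Alb had 60.7% of the sum. Ahsg, fetuin-A, was at 10860, 8130 and 9617 CPM in ASAH-, induced and uninduced mice, with a log2 fold change of -0.42 ± 0.086 (SE) between induced and ASAH- mice and an adjusted p of 0.99 by edgeR's quasi-likelihood F test after Benjamini-Hochberg correction. DESeq2 on all mice called 1 of the 14 between induced and ASAH- mice, 2 between induced and uninduced mice and 3 between ASAH- and uninduced mice. On the groups compared it called 1, 2 and 2 in the same order. The part of these cell type markers in the stellate cell values was not tested.

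Over all lists and the pathways named, 183 genes were tested and edgeR called 0 of them in each comparison. At an unadjusted p under 0.05 they numbered 20 between induced and ASAH- mice, 26 between induced and uninduced mice, and 36 between ASAH- and uninduced mice. All genes at that p, in either direction, numbered 409, 1044 and 1316 of 14317. limma-voom called 0 of the 183, and DESeq2 on all mice called 1, 6 and 8, in that order, beside 11, 95 and 173 of all 14317 genes. The 1 gene that DESeq2 called between induced and ASAH- mice was Ahsg.

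Across the 13 mice, deviations from the group means were positively related for 37 of the 45 pairs of genes, with a median Pearson r of 0.34. All genes of a mouse share its liver and its library. The highest Pearson r was 0.773 between Rgs5 and Colec11 (Spearman rho 0.709, n = 13), and 0.541 without the 2 mice farthest from the median. Sparcl1 and Rgs5 came next with an r of 0.759 (rho 0.736, n = 13), and 0.593 without the 2 farthest mice. Pdgfrb and Des had an r of 0.754 (rho 0.769, n = 13), and 0.705 without the 2 farthest mice. Dcn and Hgf had an r of 0.69 (rho 0.72, n = 13), and 0.553 without them. The lowest was -0.753 between Colec10 and Acta2 (rho -0.769, n = 13), and -0.542 without the 2 farthest mice. Dcn was most like the other genes, with a mean r of 0.477, and Acta2 least, with a mean r of -0.077.

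**Figure D4:**
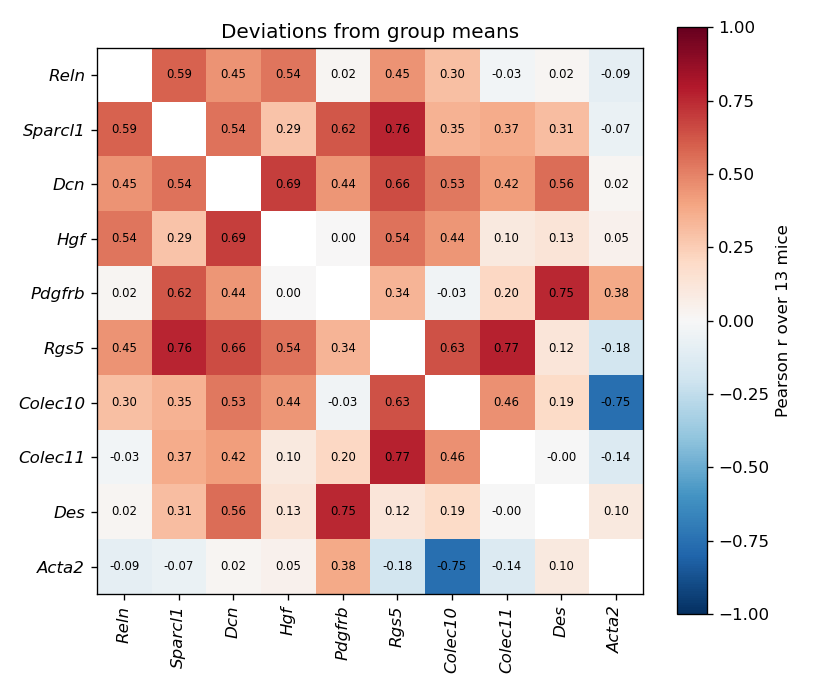
Pearson r over 13 mice of the deviations of log2 CPM from the group means for each pair of the 10 stellate cell genes, in color from -1 to 1. Most pairs are above 0, with the highest value of 0.773 between Rgs5 and Colec11, and Acta2 has its highest value, 0.375, with Pdgfrb and its lowest, -0.753, with Colec10.

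The mean deviation of the 10 genes was set against that of 17 other lists over the 13 mice. For the quiescent stellate cell markers Pearson r was 0.919 (rho 0.885, n = 13), and 0.886 without the 2 farthest mice. Myofibroblast and matrix genes had an r of 0.766 (rho 0.797, n = 13), and 0.58 without the 2 farthest mice. The PDGF family followed with an r of 0.636 (rho 0.692, n = 13), and 0.466 without them. All lists are read from the same livers and libraries, so these relations are not independent of each other. Kupffer cell and macrophage markers had an r of 0.619 (rho 0.632, n = 13), which was 0.333 without the 2 farthest mice. The small leucine-rich proteoglycans had an r of 0.583 (rho 0.626, n = 13), the SPARC family 0.541 (rho 0.527), portal fibroblast markers 0.53 (rho 0.61) and sinusoidal endothelial markers 0.512 (rho 0.445), and these were 0.333, 0.29, 0.312 and 0.455 without the 2 farthest mice. For the hepatocyte markers r was -0.305 (rho -0.39, n = 13), the lowest of the lists over all 13 mice, and -0.189 without the 2 farthest mice. The other 8 lists lay between -0.277 for the HGF pathway and 0.425 for the RGS family over all 13 mice. Without the 2 farthest mice the lectin complement pathway was at -0.46 and the HGF pathway at -0.372, both below the hepatocyte markers.

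Of 11103 other genes with a mean log2 CPM over 1, the 8 whose deviations were most like the mean of the 10 genes were Ppm1h, Sept8, Itga9, Anxa1, Lrmp, Far1, Cntnap1 and Hpse. Ppm1h, a phosphatase, had the highest Pearson r of 0.902 (rho 0.945, n = 13), and 0.905 without the 2 farthest mice. Sept8 had an r of 0.897, Anxa1 0.891, Lrmp 0.889, Far1 0.887 and Cntnap1 0.877 (rho 0.929, 0.863, 0.846, 0.918 and 0.857, n = 13), and these were 0.832, 0.857, 0.844, 0.908 and 0.872 without the 2 farthest mice. Itga9, an integrin subunit, had an r of 0.894 (rho 0.863, n = 13), and 0.842 without them. Hpse, heparanase, had an r of 0.874 (rho 0.808, n = 13), and 0.796 without them. When deviations were taken from the mean of all mice and not of the groups, 2 of these 8 remained among the 8 most alike. The 8 genes were picked by this r out of 11103, and rho and the trimmed values come from the same mice. High values follow from that choice, and nothing is read from them.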

How the data were processed

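Whole liver RNA of 13 mice was sequenced from stranded poly(A) libraries. Per the study's methods, the authors used salmon with GENCODE M19 transcripts (GRCm38.p6) and tximport. Their gene table holds estimated counts, deposited as rounded whole numbers and not scaled for library size. Descriptions and induction labels set the groups. The titles of ASAH+ samples name the opposite Dox treatment and gave only replicate numbers.

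In R 4.3.3, edgeR 4.0.16 was run with TMM scaling, its count filter by group, a robust quasi-likelihood fit of 3 group means over 13 mice and Benjamini-Hochberg correction over 14317 genes, at 0.1. SE is the size of the log2 fold change over the root of its F statistic. Exact two-sided permutation tests compared mean log2 CPM (prior count 2) and could not give less than 0.00794 (5 against 4 mice) or 0.0286 (4 against 4). DESeq2 (here 1.42.0; the study also used DESeq2), limma-voom (limma 3.58.1), other filters and scalings, the replicate block and each mouse left out were alternatives. The edgeR fit was tested on simulated data. Names came from GENCODE M21, with 53355 identifiers matched. Length was that of the longest protein-coding transcript, a definition set after the values of the genes had been seen.

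Named genes were the 10 genes and Asah1, the receptors, ligands and partners of the 10, 4 stellate cell markers, the 2 most abundant per length and the 1 with the smallest p of each list, any list gene past the threshold, and 8 genes by likeness. Of these, 1 is not reported here. The most abundant gene of each list by CPM and the genes too low to test were also named. The 10 genes and the lists were chosen with earlier results of these data known.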

Additional observations from a re-analysis of the deposited data

Results flagged for a closer look

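For each of the 10 genes, the gap between the highest or lowest mouse of a group and its nearest neighbour was set against the range of that group, and in 2 of 30 groups a mouse stood far from the others. Chance gives about 1 in 20 groups. Reln was at 50.4 CPM in uninduced replicate 4, where the median of the other uninduced mice was 41.7 CPM and the gap was 0.868 of the range. Pdgfrb was at 8.66 CPM in uninduced replicate 1, where the median of the others was 6.71 CPM and the gap was 0.84 of the range.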

How the results depend on the processing

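Under 22 alternatives, 13 of them with a mouse left out, 0 of the genes tested among the 10 were called in any of the 3 comparisons. Without a mouse, the genes lower in induced than in ASAH- mice numbered 9 to 10, those lower in induced than in uninduced mice 4 to 7, and those lower in ASAH- than in uninduced mice 0 to 1. Between induced and ASAH- mice the log2 fold change of Acta2 ran from -0.439 to 0.0108 (without ASAH- replicate 2) and that of Rgs5 from -0.33 to 0.0176 (without ASAH- replicate 3). Between induced and uninduced mice Hgf ran from -0.208 to 0.0557 (without uninduced replicate 4), Rgs5 from -0.054 (without induced replicate 3) to 0.151, and Des from -0.000706 (without induced replicate 1) to 0.208. Acta2 ran from -0.093 (without uninduced replicate 3) to 0.256 there, and was also below 0 without induced replicate 1 (-0.0904) and replicate 3 (-0.00701). Between ASAH- and uninduced mice Colec10 ran from -0.114 (without ASAH- replicate 4) to 0.235. The cause was not tested. Without a mouse the median over the 10 genes ran from -0.302 to -0.158, from -0.0803 to 0.0512 and from 0.171 to 0.306 in the 3 comparisons. At an unadjusted p under 0.05, 1 of the 8 genes tested passed between induced and ASAH- mice. This was 4 without ASAH- replicate 2, 2 without ASAH- replicate 1 or uninduced replicate 4, and 0 without ASAH- replicate 3 or 4 or induced replicate 4 or 5 and with edgeR on the groups compared. Between ASAH- and uninduced mice 2 of the 8 not picked passed. This was 1 with DESeq2's size factors, DESeq2 in either fit, limma-voom or edgeR on the groups compared, 1 without ASAH- replicate 1 or 2, induced replicate 1, 3 or 4 or uninduced replicate 2, 3 or 4, and 0 without ASAH- replicate 3. Of the 8 genes most like the 10, 2 were shared when deviations were not centred on the groups.

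All genes called numbered 2, 2 and 2 by edgeR, 11, 95 and 173 by DESeq2 on all mice and 11, 114 and 173 by DESeq2 on the groups compared. edgeR on the groups compared called 1, 3 and 0, and 4 genes were called between induced and uninduced mice with no count filter. Between induced and ASAH- mice 1 gene was called without ASAH- replicate 1, 3 or 4. Between induced and uninduced mice 8 were called without uninduced replicate 2. Between ASAH- and uninduced mice 1 was called without induced replicate 1 or uninduced replicate 3, and 0 without ASAH- replicate 1, 2 or 3, induced replicate 2, 3, 4 or 5 or uninduced replicate 1, 2 or 4. Plain library totals moved the levels by at most 5.48%. Acta2 rests on 24 to 95 counts per mouse and varied by 31.1% to 39.4% of its mean (SD) within the groups, and the part of depth in this was not tested.

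With the replicate number as a block, 0 of the genes tested among the 10 were called, 10, 5 and 0 of the 10 were lower in the 3 comparisons, the medians were -0.155, 0.0392 and 0.222, and all genes called numbered 1, 2 and 0. At an unadjusted p under 0.05 it left 0, 0 and 1 of the 8 not picked, and 0 PDGF and 1 SPARC family genes lower in induced than in ASAH- mice. Same-numbered mice are different animals and not paired. The mean correlation of their deviations was -0.0462 (12 pairs), beside 0.0126 for the 44 pairs with different numbers, and 0 of 13 mice matched best with their own number. Induced replicate 5 had no mouse of the same number in another group, so it could not match.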
